A study of Danio rerio with 4 samples.

Results

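Collagen genes were described across the cells of the growing zebrafish ventricle. The members were all rows of the gene tables whose symbol begins with col, a type number, the letter a and a chain number, and 58 of 36351 rows met this rule. Of these, 56 rows encode collagen chains, under 55 distinct symbols because col27a1a has 2 rows, and the other 2, col4a3bpa and col4a3bpb, encode ceramide transfer proteins whose old symbol only resembles that of a collagen, so they are described apart. Wild-type fish of the AB strain were sampled at 4 stages of coronary growth, with 1 library for each stage: initiation (10 mm body length, 1.5 months, 25 ventricles pooled), establishment (14 mm, 2 months, 18 ventricles), expansion (18 mm, 2.5 months, 12 ventricles) and maturation (28 mm, 8 months, 5 ventricles). No fish carried a transgene or received a treatment by the labels, and all 4 libraries carry the same batch label. Because each stage is 1 pool and 1 library, no test between stages was possible, no p-value is given, and body length, age, pool and library cannot be told apart.

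Collagens are triple helices of interwound chains and are the most abundant proteins of the extracellular matrix. Fibrillar collagens (types I, II, III, V, XI, XXIV and XXVII) form the fibres that carry load in the heart wall, type IV forms the sheet-like network of basement membranes under endothelium and around muscle cells, and type VI forms beaded filaments between both. FACIT collagens such as types XII and XVI decorate fibrils, multiplexins (types XV and XVIII) sit in basement membranes and release anti-angiogenic fragments such as endostatin, and transmembrane collagens such as type XIII stay anchored in the cell surface. In the vertebrate heart, fibroblasts and other derivatives of the epicardium are the known main source of fibrillar collagen, whereas endothelial and mural cells are known for type IV.

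Levels are given in CPM, the UMIs (unique molecular identifiers, each counting 1 captured transcript) of a gene in every 1000000 UMIs, summed over the barcodes of a class in a library. The 3′ chemistry gives 1 UMI for each transcript end, so levels of different genes were not divided by length. Barcodes with at least 2500 UMIs and 600 genes were kept, which left 6932, 6663, 12296 and 7612 barcodes from initiation to maturation. Their median depth was 13251.5, 12517, 5215 and 5524 UMIs. Classes were assigned by marker genes, none of them a collagen, and a class was given a level where a library held at least 50 of its barcodes. The fibroblast class met this in 3 libraries (57, 544 and 650 barcodes), the smooth muscle class in 2 (297 at initiation and 285 at expansion) and the pericyte class in 2 (53 at expansion and 95 at maturation). Values from classes of 25 to 49 barcodes are marked as such. Intervals in parentheses are exact 95% Poisson or binomial limits and cover counting error only. Libraries shared 9 to 32 barcode sequences in each pair. No doublet caller was run. Barcodes that met the gates of several compartments (muscle, endothelium, stroma, leukocytes, thrombocytes or blood), or that were tied between classes, were set aside (265 to 1153 in a library). Fibroblast, epicardial, angptl7/rspo1, smooth muscle and pericyte classes all belong to the stroma. A barcode that met the gates of several of them was kept, in the class with the largest share of its markers detected. Every marker of a class was detected in it, other than desmb in smooth muscle at initiation, with summed fibroblast marker levels of 1483 to 2751 CPM in fibroblasts and 3591 to 3901 for the epicardial list in epicardial cells. These classes hold cells that share few markers, and a class name says no more than that. In a summed level, fewer expressing cells and less RNA per cell cannot be told apart.

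Fibroblasts carried the most collagen mRNA. At expansion their collagen chains together held 12300.3 (12171 to 12431) CPM, or 1.23% of all transcripts. For maturation the sum was 11478 (11371 to 11587), or 1.15%. The establishment library was lower, with 8317 (8083 to 8556). The 28 fibroblast barcodes of initiation held 11203 (10787 to 11631), nearer to both later libraries than to establishment, so the sums do not rise steadily with stage. Pericytes followed at expansion with 10090.0 (9719.9 to 10471), although at maturation their level was 7176 (6934 to 7424). Over the 53 pericyte barcodes at expansion the median was 7192 and the mean 9027 CPM, against 11520 and 12253 in fibroblasts. Epicardial cells stood at 7238 (7138 to 7339), 5639 (5560.4 to 5718), 5806 (5735 to 5877) and 5207 (5136 to 5278) from initiation to maturation, which placed initiation highest and the other libraries close to each other. The mesenchymal class marked by angptl7 and rspo1, whose marker list also holds mgp, tnmd and scxa, held 2034 (1902 to 2174), 3193 (3081 to 3308) and 2925 (2830.3 to 3022) from establishment to maturation. Smooth muscle cells held 2428 (2371 to 2487) at initiation and 2080.4 (2016 to 2146) at expansion.

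Endothelial classes lay lower and close together. The endocardial class, with 993 to 5853 barcodes in a library, held 1901, 1419, 2122 and 1805 CPM of collagen from initiation to maturation. Endothelial cells that met neither the endocardial nor the coronary gate, called other endothelial here, held 2112, 1723, 2815 and 2226. The endocardial gate asked for at least 4 endocardial and fewer than 3 coronary markers. For the coronary gate it was at least 3 coronary and at most 3 endocardial markers. Other endothelial cells can thus hold barcodes with many markers of both lists, or few of either, coronary cells among them. The 84 coronary ECs at maturation held 2131 (2024 to 2243), and the 36 smooth muscle barcodes at establishment held 1087 (972 to 1212). CMs held 262, 112, 249 and 241, each lower than any endothelial value, and the value at maturation was 368 with at least 5000 UMIs and 1000 genes for a barcode and 95.2 without barcodes that held markers of a further class. From initiation to maturation 65.9%, 55.0%, 48.2% and 22.9% of CM barcodes held a collagen UMI, at median depths of 10584, 14372, 5594.5 and 4907 UMIs. The median collagen level over CM barcodes was 119.6, 51.7, 0 and 0 CPM, so the sums at expansion and maturation rest on part of the barcodes. Red blood cells, which are not known to make collagen and serve here as a reference for carry-over of free RNA, held 28.0 at initiation, 18.5 at establishment and 45.9 (35.5 to 58.4) at expansion. In barcodes with 10 to 100 UMIs, which sample the RNA outside cells, collagen accounted for 201, 217, 977 and 564 CPM. The red blood cell profile was not that of free RNA alone. At initiation 228 of its UMIs were of col15a1b, 4.01 (3.51 to 4.57) CPM, against 1.48 (0.482 to 3.46) in free RNA, and its ratio of col15a1b to col15a1a was 25.3 (13.1 to 56.1), where the other classes of at least 50 barcodes that allowed the ratio at initiation lay between 0.072 and 0.378. The 32 angptl7/rspo1 barcodes at initiation held 189 (137 to 255) CPM of col15a1b. The source of these UMIs was not tested. The collagen level of CMs lay above the red blood cell level in the 3 libraries that allowed the comparison and below that of free RNA in every library but initiation. In each library where both had a level, fibroblasts lay above epicardial cells, epicardial cells above the mesenchymal class and the mesenchymal class above both endothelial classes. With a minimum of 5000 UMIs and 1000 genes for a barcode, however, other endothelial cells (3043) lay above the mesenchymal class (3025) at expansion. Smooth muscle lay above both endothelial classes at initiation and below other endothelial cells at expansion, where its interval overlapped the endocardial value.

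**Figure D1:**
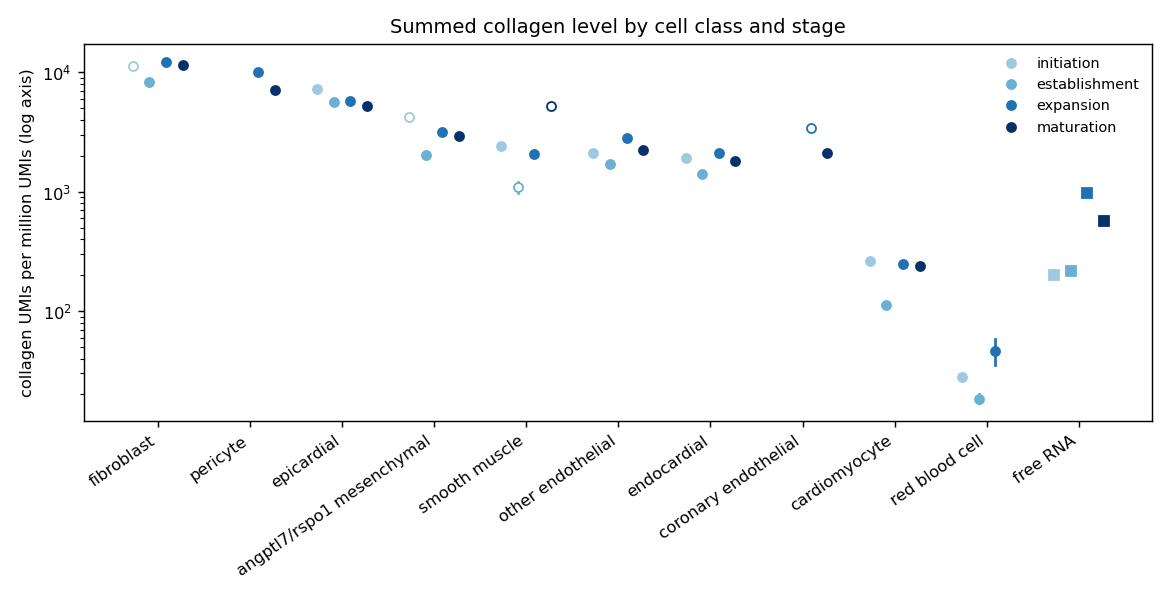
Summed level of the 56 collagen rows, in CPM on a log axis, for each cell class and stage, with 95% Poisson intervals where they are wider than the marks. Open circles are classes of 25 to 49 barcodes and squares are free RNA. Fibroblasts lie at 8317 to 12300.3 in filled circles and red blood cells at 18.5 to 45.9.

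A few genes supplied nearly all of this RNA. Of 390493 collagen UMIs in barcodes with a class, the 3 most abundant members (col4a1, col5a1 and col1a2) held 38.5%, the 8 most abundant 73.7% and the 15 most abundant 95.3%. Among the 56 collagen rows, 20 had at least 1000 and 41 had at least 100. The other 15 rows had fewer than 100, and 1 of them, the second col27a1a row (LL0000039780), had none, while the first (LL0000039779) had 329. Of the 41 rows with at least 100 UMIs, 17 had their highest level at expansion in fibroblasts, 8 in pericytes, 7 in the angptl7/rspo1 class, 3 in epicardial cells, 2 in other endothelial cells and 1 each in endocardial cells, CMs, smooth muscle cells and macrophages, among the 10 classes with a level in that library. Some of these places rest on very few UMIs. In pericytes col4a5 and the first col27a1a row (7.20 CPM each) and col11a2 (3.60) lay below 10.8, the limit that a count of 0 allows there. In macrophages col5a2b (2.85) lay below a limit of 8.55. The map of levels by class shows the abundant members high in fibroblasts and pericytes together, with a block of low members that stand out in the angptl7/rspo1 class.

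**Figure D2:**
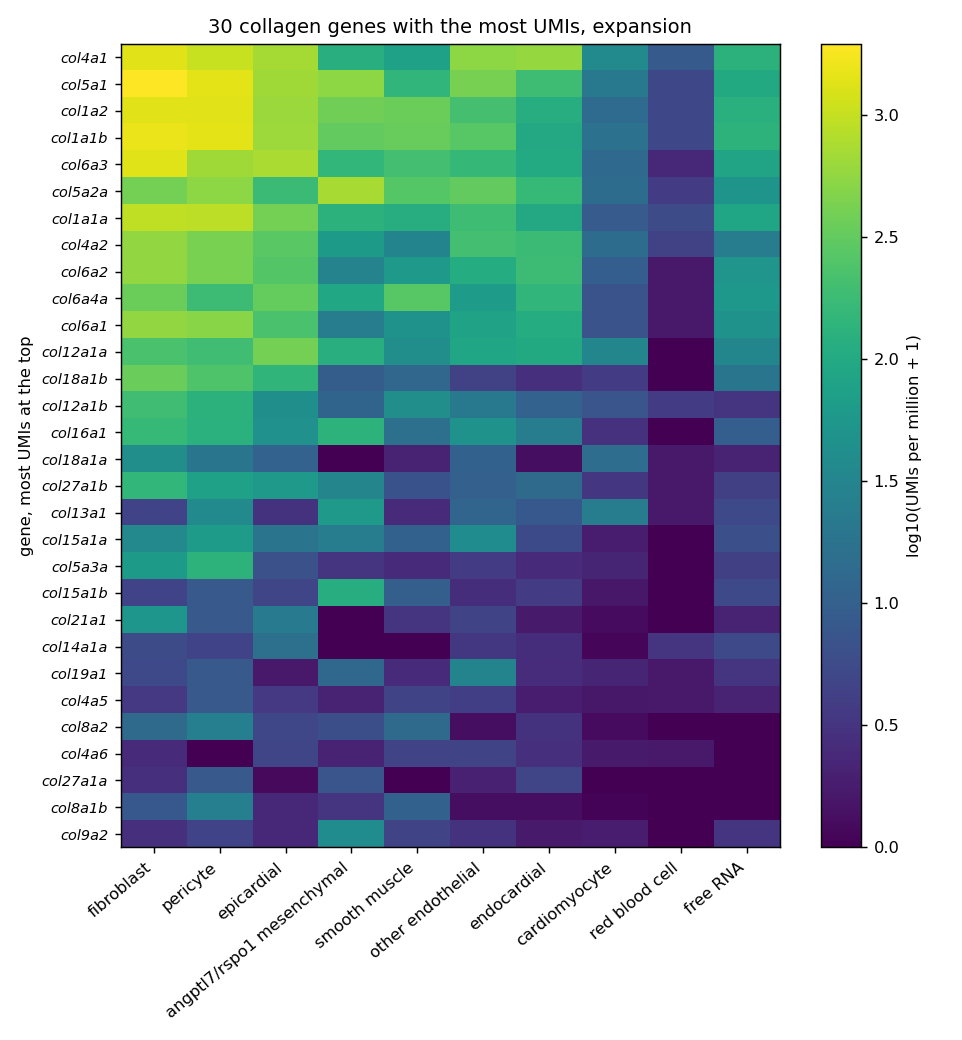
Levels at expansion of the 30 collagen rows with the most UMIs, as log10 of CPM plus 1, for 8 cell classes, red blood cells and free RNA. The row of col5a1 is brightest in fibroblasts (1946 CPM), and the rows of col15a1b and col9a2 are brightest in the angptl7/rspo1 class (109.8 and 38.7).

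The mixture of collagen families differed between classes. Fibrillar collagens took 52.4% (51.8% to 52.9%) of the collagen UMIs of fibroblasts at expansion, 44.3% (43.7% to 44.9%) of those of epicardial cells and 68.5% (66.8% to 70.1%) of those of the angptl7/rspo1 class, but 31.4% (31.1% to 31.8%) of those of endocardial cells. Type IV chains took 15.8% (15.4% to 16.2%) in fibroblasts, 5.60% (4.81% to 6.47%) in the angptl7/rspo1 class and 35.8% (35.5% to 36.1%) in endocardial cells, and 75.3% (73.0% to 77.5%) in coronary ECs at maturation. The share of type IV in coronary ECs at maturation was the highest of any class with a level, and their fibrillar share, 15.4% (13.6% to 17.3%), the lowest among endothelial, mural and mesenchymal classes. Both shares rest on the 84 coronary barcodes of that library. Type VI chains took 25.2% (24.9% to 25.5%) in endocardial cells and 27.5% (26.2% to 29.0%) in smooth muscle cells at expansion, against 14.3% (13.5% to 15.0%) in other endothelial cells and 2.25% (1.55% to 3.14%) in coronary ECs at maturation. In the endocardial class type IV stayed at 33.8% to 38.3% over the 4 libraries. In other endothelial cells type IV went from 23.8% at initiation and 19.3% at establishment to 43.6% at maturation, while the fibrillar share went from 63.5% at establishment to 35.3%. That class can hold coronary cells, whose part in these differences was not tested.

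**Figure D3:**
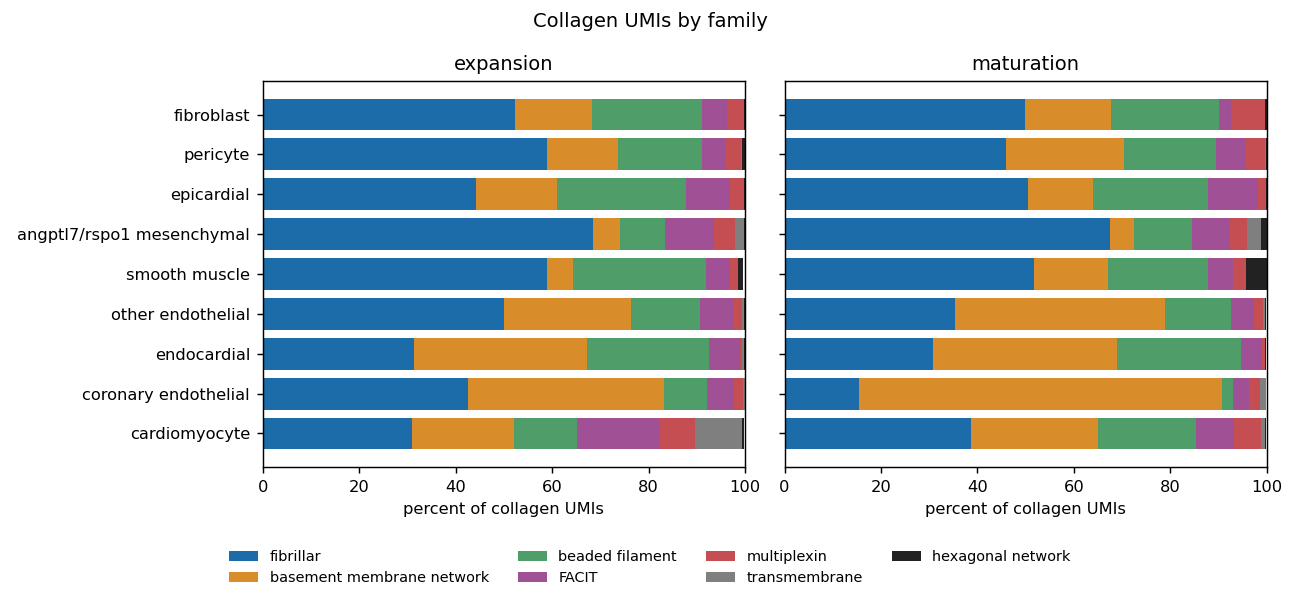
Share of collagen UMIs taken by each collagen family, in percent, for cell classes at expansion and maturation, as stacked bars. Coronary ECs at maturation stand apart with 75.3% type IV, and the coronary bar at expansion and the smooth muscle bar at maturation rest on 39 and 37 barcodes. The anchoring collagens and type XXVIII are not drawn.

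Type I collagen, the main fibre of load-bearing tissue, is made in zebrafish from the chains of col1a1a, col1a1b and col1a2. The level of col1a2 in fibroblasts was 1209, 1372 and 1173 CPM from establishment to maturation, which varied little between libraries. In epicardial cells it was 775, 1024, 631 and 712 CPM from initiation to maturation, highest at establishment. The level of col1a1b exceeded that of col1a1a in fibroblasts at every stage, at 1002, 1555 and 1438 CPM from establishment to maturation against 667, 946 and 819.9. Pericytes held 1437 col1a1b at expansion and 727 at maturation. Smooth muscle cells held 425 col1a2 at initiation and 354 at expansion, and averaged over both libraries col1a2 was the most abundant collagen of that class. In endocardial cells col1a2 was 128, 126, 109.9 and 77.9 CPM from initiation to maturation, above the red blood cell values of 1.09, 1.98 and 4.18 in the libraries that allowed the comparison and below the free RNA value at expansion and maturation (120.1 and 80.5).

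Type V collagen seeds type I fibrils and sets their width. The level of col5a1 was the highest of all members in fibroblasts, at 1442, 1946 and 1644 CPM from establishment to maturation, and also led in pericytes averaged over both libraries, at 1174. Its partner chain col5a2a had a different leading class: the angptl7/rspo1 cells held 642, 724 and 533 CPM from establishment to maturation, more than fibroblasts (409, 404 and 376 CPM from establishment to maturation) in every library. In the angptl7/rspo1 class col5a2a was the most abundant collagen and col5a1 came next, with means over 3 libraries of 633 and 404. The 32 barcodes of that class at initiation held 1259.6 (1118 to 1414) col5a2a. The third type V gene, col5a3a, was low in most classes and stood at 133 and 134 in pericytes at expansion and maturation.

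The cartilage-type fibrillar chains stood at low levels, and their leading classes differed. By the mean over libraries col2a1b and col11a1a were highest in the angptl7/rspo1 cells, col11a1b, with 192 UMIs in all, in epicardial cells (5.13) and col11a2, with 106, in pericytes (1.80). The pericyte level of col11a2 was 3.60 at expansion, below the limit of 10.8 for a count of 0 there, so no leading class can be named for it. The type II chain col2a1b, the chain of cartilage fibrils, was 14.0, 31.4 and 34.1 CPM from establishment to maturation there and at most 6.29 in any other class with a level. The type XI chain col11a1a, which copolymerises with type II, was 34.5 at expansion and 30.8 at maturation in the angptl7/rspo1 class, with 0 UMIs at establishment, where the limit that a count of 0 allows is 7.01. The level of col27a1b, a long fibrillar chain with a role in the notochord and spine of zebrafish, was led by fibroblasts at 102, 149.8 and 84.4 CPM from establishment to maturation. The paralog of col2a1b, col2a1a, had 7 UMIs in all classes together.

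Type IV collagen was carried by endothelial as well as mesenchymal classes. The chains col4a1 and col4a2 pair in the common basement membrane trimer, and their genes neighbour each other in the RefSeq annotation of GRCz12tu, as do col4a3 and col4a4, col4a5 and col4a6, and col9a2 and col16a1. The level of col4a1 was 702, 1368 and 1501 CPM from establishment to maturation in fibroblasts, 1041 and 1238 in pericytes at expansion and maturation, and 1142 (1063 to 1224) in coronary ECs at maturation, which held 461 col4a2. The 77 thrombocytes at maturation, whose summed collagen level was 443, held 178 col4a1 and 59.2 col4a2. In endocardial cells it was 544, 384, 580.3 and 524 CPM from initiation to maturation and was the most abundant collagen, as it was in other endothelial cells, at 384, 260.2, 534 and 691 CPM from initiation to maturation, except at establishment, where col5a1 was 293. Smooth muscle cells held less, 16.1 (11.7 to 21.5) at initiation and 74.4 (62.7 to 87.7) at expansion. The 37 smooth muscle barcodes at maturation held 533 (448 to 629). The other type IV chains were rare in every class, and col4a3, col4a4, col4a5 and col4a6 had 29, 171, 364 and 360 UMIs, against 71937 for col4a1.

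Type VI collagen, a linker between basement membrane and fibrils, was led by fibroblasts for col6a1, col6a2 and col6a3. The level of col6a3 there was 348, 1333 and 1536 CPM from establishment to maturation, so that it ranged from under col6a1 at establishment (378) to above it at maturation (522). In epicardial cells col6a3 was 675, 308, 747 and 631 CPM from initiation to maturation. The fourth chain, col6a4a, had another order of classes. Smooth muscle cells held the most at initiation, 502 (476 to 529), with 269 (246 to 293) at expansion, above col6a1 in the same cells (34.3 and 46.1). Pericytes showed the opposite order, with col6a1 at 501 and col6a4a at 176 at expansion.

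The FACIT collagens were divided between classes. The level of col12a1a, which bridges fibrils and other matrix proteins, varied little in epicardial cells, at 417, 453, 397 and 464 CPM from initiation to maturation. It was the most abundant collagen of macrophages, at 85.5 (57.7 to 122) in 50 barcodes at expansion and 52.9 (37.2 to 72.9) in 92 at maturation, above free RNA (31.1 and 9.98). Other abundant members were lower in macrophages, with col5a1 at 17.1 and 8.57, col4a2 at 8.55 and 7.14, and col1a2 at 0 and 2.86. The level of col16a1 was 102, 157 and 124 CPM from establishment to maturation in fibroblasts and 49.1, 134 and 81.1 CPM from establishment to maturation in the angptl7/rspo1 class. The level of col21a1 was led by epicardial cells at initiation (43.3) and by fibroblasts at expansion (51.9), and the angptl7/rspo1 class had 0 UMIs of it in all 4 libraries, with a limit of 3.14 at expansion. In contrast, col19a1 was highest in other endothelial cells in every library, with 29.4 (23.6 to 36.3) at expansion, against 1.60 in endocardial cells. Of the type IX chains of cartilage, col9a1a, col9a2 and col9a3 were highest in the angptl7/rspo1 class in the 3 libraries where it had a level, and there col9a2 was 53.7, 38.7 and 41.4 CPM from establishment to maturation. At expansion col9a3 was 3.14 there, no higher than the limit that a count of 0 allows.

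The remaining type IX chain, col9a1b, had 25 UMIs in all and was highest in other endothelial cells, at a mean of 0.304.

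Multiplexins and transmembrane collagens also differed between classes. The level of col15a1b in the angptl7/rspo1 class was 37.4, 109.8 and 83.5 CPM from establishment to maturation, whereas its paralog col15a1a was 23.4, 23.0 and 17.8 CPM from establishment to maturation there and was highest at expansion in pericytes, at 64.8, and at maturation in coronary ECs, at 42.1 (28.2 to 60.4). The transmembrane collagen col13a1, known from muscle attachment and neuromuscular junctions in mammals, was 25.7, 57.5 and 82.7 CPM from establishment to maturation in the angptl7/rspo1 class and 75.4, 28.8, 24.1 and 1.72 CPM from initiation to maturation in CMs, with 26.1 (15.5 to 41.3) in coronary ECs at maturation and at most 3.58 in fibroblasts and epicardial cells in each library.

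Of the type XVIII pair, col18a1b marked fibroblasts, epicardial cells and pericytes, at 341, 141 and 238 at expansion, and was near 0 in endocardial cells (1.86). By contrast, col18a1a was highest in CMs at initiation and in fibroblasts at maturation, as described with the stages.

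The remaining collagens were rare. The hexagonal network chains col8a1b and col8a2, known from vessel walls and the cornea, were highest in pericytes at expansion, at 25.2 (10.1 to 51.9) each, from 7 UMIs each. At maturation fibroblasts led for col8a1b (32.6) and the angptl7/rspo1 class for col8a2 (21.9), and in the 37 smooth muscle barcodes at maturation they were 72.3 (43.5 to 113) and 152 (109 to 207). Type VII, which anchors epidermis, had 79 and 136 UMIs for col7a1 and col7a1l in all classes together. At the low end, col28a1a had 3 UMIs and col10a1a 1. Of the ceramide transfer genes that share the prefix, col4a3bpb was detected in every class with a level and was highest in macrophages at expansion (379). In epicardial cells it was 147, 75.7, 173 and 334 CPM from initiation to maturation, while col4a3bpa reached at most 23.2 there.

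Between establishment and maturation, fibroblasts held large differences in single genes, although the share of collagen genes past 2-fold was close to that of all genes. For this and the following comparisons, a gene was compared where its mean level in the class was at least 10 CPM and both stages together had at least 20 UMIs, and it was called at a difference of 2-fold or more. No such call is a test. Because initiation held 28 fibroblast barcodes, establishment was set against maturation, a choice made after the data were seen. Of 21 collagen genes compared, 8 were called higher at maturation, where 21.9% of all 7069 genes compared were, and 2 lower, where 24.3% of all genes were. Either way that is 10 of 21, against 46.3% of all genes. The median log2 difference was 0.30 over the collagen genes and -0.06 over all genes.

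The 2 genes that were lower were the pair of type XII paralogs. In fibroblasts col12a1a was 467 (385 to 561), 580.5 (520.0 to 646), 224 (206 to 242) and 59.9 (52.4 to 68.2) CPM from initiation to maturation, where initiation rests on the 28 barcodes. That placed both earlier libraries above both later ones and maturation 9.69-fold (8.16 to 11.5) below establishment. For col12a1b the values were 339.9, 385, 189 and 50.2 CPM from initiation to maturation, and maturation was 7.66-fold (6.29 to 9.35) below establishment. Epicardial col12a1a did not follow, with intervals of 393 to 442 at initiation and 443 to 485 at maturation.

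The largest differences upward were in col18a1a and col5a3a. Fibroblasts held 0, 1, 116 and 824 UMIs of col18a1a from initiation to maturation, that is 1.73 (0.044 to 9.65), 41.5 (34.3 to 49.8) and 217 (202 to 232) CPM in the last 3 libraries, with a limit of 12.3 for the count of 0 at initiation. From expansion to maturation, where both counts are large, it was 5.22-fold (4.29 to 6.40) higher. The level of col5a3a was 20.5 (6.65 to 47.8), 6.93 (1.89 to 17.7), 60.4 (51.7 to 70.3) and 168 (155 to 182) CPM from initiation to maturation, and 2.78-fold (2.35 to 3.32) higher at maturation than at expansion. The paralog col18a1b was 315, 135, 341 and 574 CPM from initiation to maturation, lowest at establishment and highest at maturation. Type IV and VI chains were also higher at maturation than at establishment, col6a3 4.41-fold (3.83 to 5.10), col4a2 3.05-fold (2.51 to 3.73) and col4a1 2.14-fold (1.93 to 2.37). The remaining genes called higher were col21a1 and col8a1b, with 4 and 9 UMIs at establishment and 23.1 and 32.6 CPM at maturation. For col6a3, col4a2 and col4a1, however, the values in the 28 fibroblasts at initiation (979, 651 and 1323) lay closer to those at expansion (1333, 573 and 1368), so establishment was the library that stood apart for them. The fibroblast class also held summed epicardial marker levels of 1256 at establishment and 786 at maturation, and CM marker levels of 1719 and 5289, whose part in these differences was not tested.

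With the 28 barcodes of initiation in place of establishment, a comparison chosen after the data were seen, 3 of 21 collagen genes were called higher and 4 lower at maturation, against 9.13% and 28.1% of all genes. In the plot of fibroblast and epicardial levels by stage, col12a1a and col12a1b run downward and col18a1a and col5a3a upward in fibroblasts through expansion and maturation, and the col6a3, col4a1 and col4a2 lines dip at establishment in both classes.

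**Figure D4:**
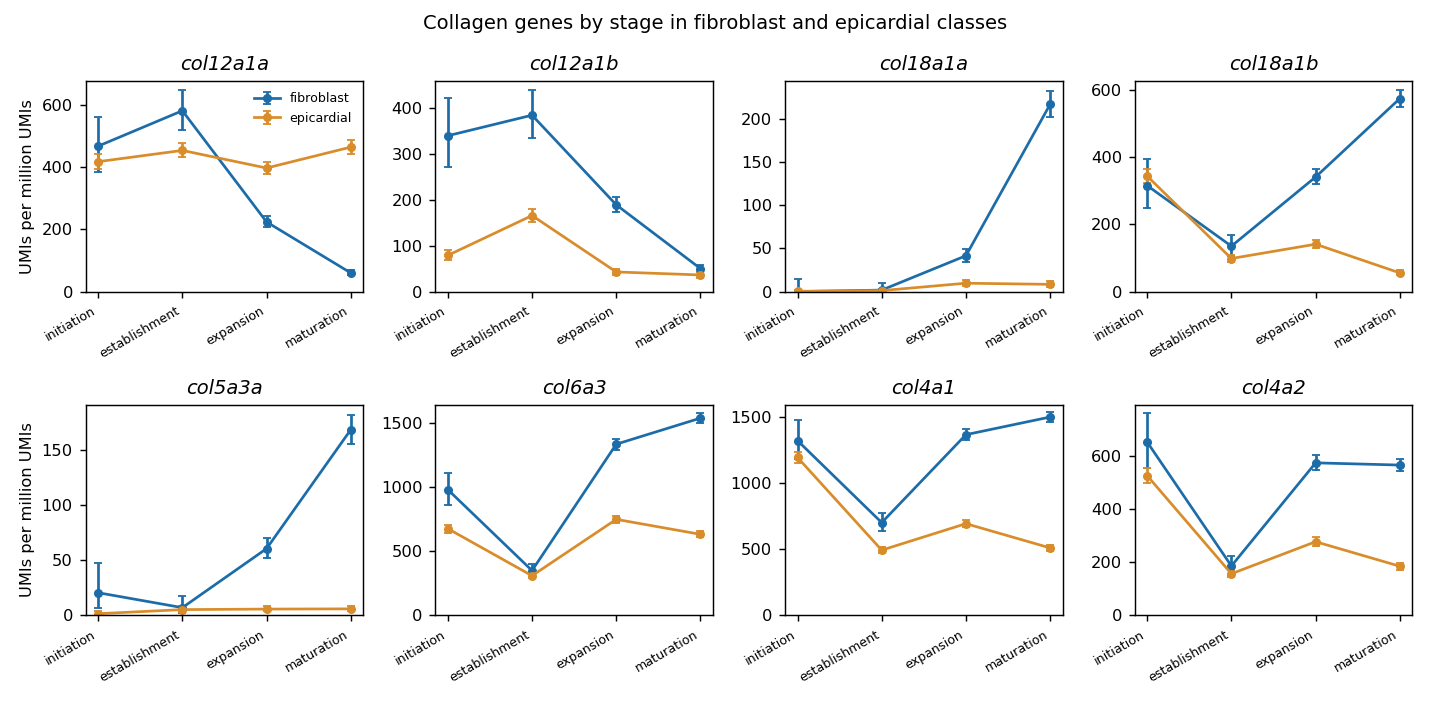
Levels of 8 collagen genes by stage, in CPM, in fibroblasts and epicardial cells, with 95% Poisson intervals. Fibroblasts at initiation are 28 barcodes. In fibroblasts col12a1a goes from 580.5 at establishment to 59.9 at maturation and col18a1a from 1.73 to 217.

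In epicardial cells the called differences from initiation to maturation were all downward. Of 18 collagen genes compared, 7 were called lower at maturation, where 13.1% of all 7313 genes were, and 0 higher, where 5.58% of all genes were. The median log2 difference was -0.54 over the collagen genes and -0.22 over all genes. The largest was in col18a1b, 343, 98.4, 141 and 55.6 CPM from initiation to maturation, which was 6.18-fold (5.33 to 7.19) lower at maturation, whereas in fibroblasts the same gene was highest at maturation. The basement membrane pair was lower together, col4a1 at 1195, 493, 694 and 510.1 CPM from initiation to maturation and col4a2 at 525, 156, 277 and 184 CPM from initiation to maturation, or 2.34-fold (2.22 to 2.48) and 2.85-fold (2.60 to 3.12) lower at maturation. The FACIT chains col21a1 and col16a1 were 4.49-fold (3.09 to 6.65) and 2.67-fold (2.07 to 3.45) lower, from 43.3 to 9.64 and from 65.6 to 24.6, and col27a1b and col12a1b were 2.40-fold (1.89 to 3.06) and 2.18-fold (1.76 to 2.71) lower. Type I chains were not called, with col1a1b at 607, 667, 635 and 669 CPM from initiation to maturation. Epicardial marker levels were alike at both ends, 3901 and 3828, and fibroblast marker levels within the class were 435 and 322.

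In smooth muscle cells initiation was set against expansion, also a choice made after the data were seen. Of 15 collagen genes, 3 were called higher at expansion (all genes 4.27%) and 1 lower (all genes 5.57%). Those higher were col4a1, 4.63-fold (3.29 to 6.62), its partner col4a2, 4.18-fold (2.47 to 7.34), and col6a2, 2.18-fold (1.61 to 2.97), and the one lower was col15a1a, 3.11-fold (1.85 to 5.50). The 37 smooth muscle barcodes at maturation differed from the rest in that their summed collagen level was 5246 (4973 to 5531), their smooth muscle marker level 6038 against 12670.5 at initiation, and their fibroblast marker level 859.8 against 316. With them, 13 of 19 collagen genes were called higher than at initiation and 1 lower, against 14.3% and 24.8% of all genes. The part of the marker levels in this difference was not tested.

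In the angptl7/rspo1 class 12 of 20 collagen genes were past 2-fold between establishment and expansion, all of them higher at expansion. Of all genes, 33% were past 2-fold either way, 26% higher and 6.93% lower. Centred on the median of all genes, the count was 6 of 20, all higher, beside 16% of all genes higher and 14.8% lower. The median log2 difference was 1.16 over the collagen genes and 0.36 over all genes. Among them col6a3 went from 39.7 to 152, col15a1b from 37.4 to 109.8 and col16a1 from 49.1 to 134. The establishment values rest on 59 barcodes, with 17, 16 and 21 UMIs of these genes. Between expansion and maturation 2 of 21 were past 2-fold (all genes 23.4%), col12a1a lower and col12a1b higher. The 32 barcodes at initiation had a higher summed level, 4197 (3935 to 4472), and against them 3 of 22 collagen genes were higher and 6 lower at maturation, with 13.2% and 33.5% of all genes. In pericytes 6 of 19 collagen genes were past 2-fold between expansion and maturation (all genes 29.1%), or 3 of 19 when centred (all genes 20.9%). As reported 5 of the 6 were lower, among them col1a2 from 1397 to 675 and col1a1a from 922 to 416, while col4a1 was 1041 (924 to 1168) and 1238 (1139 to 1344).

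Endocardial collagens differed little between initiation and maturation, whereas 6 of 14 genes were past 2-fold from establishment to expansion, or 1 of 14 when centred on the median of all genes. Of 14 collagen genes compared between initiation and maturation, 1 was called higher (all genes 10.6%) and 0 lower (all genes 27.3%). Their median log2 difference was -0.01, against -0.40 over all genes. The gene called was col6a4a, 34.7, 67.0, 145 and 102 CPM from initiation to maturation, which was 2.92-fold (2.62 to 3.27) higher at maturation. The same gene was called in other endothelial cells, 2.89-fold (1.94 to 4.46) higher, from 17.1 to 49.4. From expansion to maturation col6a4a was lower in fibroblasts (353 and 129), as it was in endocardial cells (145 and 102).

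In other endothelial cells 2 of 16 collagen genes were called higher at maturation (all genes 14.2%) and 3 lower (all genes 18.3%). Besides col6a4a, col4a2 was 2.50-fold (2.13 to 2.94) higher, at 110.1, 66.6, 202 and 275 CPM from initiation to maturation, and its partner col4a1 was 1.80-fold (1.65 to 1.97) higher. Those lower were col19a1, 2.67-fold (1.52 to 4.76), col5a2a, 2.35-fold (2.06 to 2.68), at 301, 253, 310.3 and 128 CPM from initiation to maturation, and col15a1a, 2.34-fold (1.72 to 3.20). The coronary class had a level at maturation only, and its 39 barcodes at expansion held 3429.6 (3262 to 3604) CPM of collagen with col5a1 at 536 (471 to 608), against 123 (98.5 to 152) in the 84 at maturation. Its type IV level was alike at both, col4a1 being 1011 (920.4 to 1107) and 1142 (1063 to 1224). Because the summed level was 3429.6 at expansion and 2131 at maturation, col4a1 was a smaller part of it at expansion. Fibroblast marker levels in the coronary class were 68.1 at expansion and 20.3 at maturation, and their part in the difference was not tested.

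CMs carried a pair of collagens early on. The level of col18a1a was 90.5 (85.1 to 96.1), 13.3 (12.0 to 14.8), 13.9 (11.9 to 16.1) and 4.20 (2.63 to 6.36) CPM from initiation to maturation, and that of col13a1 75.4 (70.6 to 80.6), 28.8 (26.8 to 30.8), 24.1 (21.4 to 26.9) and 1.72 (0.786 to 3.26) CPM from initiation to maturation. Both exceeded red blood cells (0.229 and 0.686 at initiation) and free RNA (8.31 and 4.75), and at maturation col18a1a was 21.5-fold (14.2 to 34.5) and col13a1 43.9-fold (23.0 to 96.4) lower than at initiation, near free RNA (6.24 and 1.25). After thinning each barcode to 2500 UMIs, 14.5% (12.4% to 16.8%), 2.62% (1.96% to 3.42%), 1.89% (1.33% to 2.61%) and 0.972% (0.445% to 1.84%) of CMs held a col18a1a UMI from initiation to maturation, against 0.081% of red blood cells at initiation. For col13a1 the shares were 13.8% (11.7% to 16.0%), 6.50% (5.45% to 7.67%), 4.99% (4.06% to 6.07%) and 0.216% (0.026% to 0.778%), against 0.081%. Without thinning, the share of CMs with a col18a1a UMI was 28.1% at initiation and 1.84% at maturation, at median depths of 10584 and 4907 UMIs, and that with col13a1 34.3% and 0.648%.

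Of 7 collagen genes compared in CMs, 2 were thus lower at maturation (all genes 46.2%) and 4 higher (all genes 5.75%). The 4 higher were col5a1, col1a1b, col4a1 and col4a2, at 9.23-fold (6.37 to 13.7), 4.35-fold (3.04 to 6.30), 2.87-fold (2.35 to 3.51) and 2.45-fold (1.82 to 3.30). The median log2 difference over all genes was -0.88. Centred on it, 2 of 7 were still lower (all genes 19.7%) and 4 higher (all genes 20.9%). All 4 lay below free RNA in CMs at expansion and maturation, for example col5a1 at 20.4 and 28.3 against 99.7 and 54.9, and free RNA col5a1 was itself 15.1 at initiation. Fibroblast marker levels in the CM class were 12.8, 6.99, 17.9 and 22.7 from initiation to maturation, with all 7 markers detected from establishment on. When barcodes with markers of a further class were left out, 4 collagen genes were compared in CMs in place of 7 and 2 were past 2-fold in place of 6. Both of these were lower, col18a1a and col13a1, and col4a1 had a log2 difference of 0.62 in place of 1.52. The part of free RNA in the higher values was not tested.

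**Figure D5:**
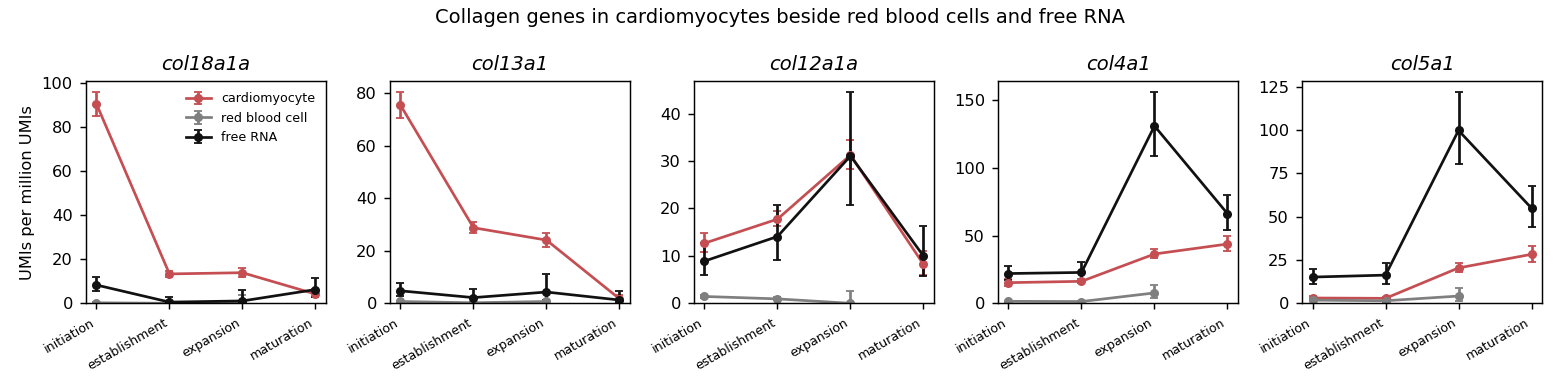
Levels of 5 collagen genes by stage, in CPM, in CMs, red blood cells (no level at maturation) and free RNA, with 95% Poisson intervals. The CM lines of col18a1a and col13a1 start at 90.5 and 75.4, above free RNA, whereas those of col4a1 and col5a1 lie under the free RNA line in every library.

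Between neighbouring stages, collagen genes past 2-fold either way in epicardial cells numbered 7 of 18 (all genes 37.5%) from initiation to establishment, 2 of 18 (all genes 36.2%) from establishment to expansion and 3 of 18 (all genes 10.8%) from expansion to maturation. In endocardial cells they numbered 1 of 14 (all genes 30.5%), 6 of 14 (all genes 22.9%) and 1 of 14 (all genes 14.3%). In other endothelial cells they numbered 3 of 16 (all genes 31.9%), 8 of 16 (all genes 30.1%) and 3 of 16 (all genes 10.3%). In CMs they numbered 2 of 7 (all genes 19.6%), 4 of 7 (all genes 10.1%) and 3 of 7 (all genes 38.8%). In fibroblasts they numbered 9 of 21 (all genes 41.5%) from establishment to expansion and 7 of 21 (all genes 12.6%) from expansion to maturation. Several of these shares lie near or below the background. In fibroblasts from expansion to maturation the share lay above it, and stayed 7 of 21 when centred on the median of all genes (all genes 9.18%). It was also 7 of 21 with at least 5000 UMIs and 1000 genes, with 1 more marker and without barcodes that held markers of a further class. Some other counts moved when folds were centred on the median of all genes. From establishment to expansion the 6 endocardial genes, all higher, became 1 of 14 (all genes 21.1%) and the 8 of other endothelial cells, all higher, became 3 of 16 (all genes 28.2%). From initiation to establishment the 7 of epicardial cells, 6 of them lower, became 3 of 18 (all genes 30.9%), 2 of them lower. From expansion to maturation the 3 of CMs, all lower, became 5 of 7 (all genes 32%), 3 of them lower and 2 higher. Without barcodes that held markers of a further class, the 4 of CMs from establishment to expansion became 0 of 4 (all genes 8.09%). Genes of all kinds were shifted in the establishment library, with median log2 differences over all genes of -0.47 in epicardial and -0.39 in endocardial cells relative to initiation.

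The establishment library was the lowest for many abundant collagens. Over the 15 most abundant members and the 4 classes with a level at all stages, the lowest of the 4 stages was establishment in 31 of 60 gene and class pairs, maturation in 17, initiation in 8 and expansion in 4. Over all 25994 gene and class pairs at or above 10 CPM, the lowest stage was establishment in 37.5%, maturation in 39%, initiation in 14.9% and expansion in 8.61%, so establishment was the lowest stage for many genes other than collagens. The 60 collagen pairs were taken without that minimum, under which only 7 collagen genes were compared in CMs. The 2 sets are therefore not alike, and their shares cannot be set directly against each other. Both col6a3 and col4a2 were lowest at establishment in all 4 classes. For col6a3 the establishment values were 308 in epicardial, 46.7 in endocardial, 52.8 in other endothelial cells and 0.833 in CMs, against 747, 101, 154 and 12.2 at expansion. In contrast, col1a2, col1a1a and col5a2a were lowest at establishment in none of the 4 classes, as epicardial col1a2 shows (1024 at establishment, its highest). Since each stage is 1 library, stage and library preparation cannot be told apart for this pattern.

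Chains that assemble into the same trimer were compared within a library, which sets depth aside. Heterotrimeric type I collagen holds α1 and α2 chains, and the ratio of col1a2 to the sum of col1a1a and col1a1b UMIs in fibroblasts was 0.725 (0.657 to 0.800), 0.549 (0.527 to 0.571) and 0.520 (0.501 to 0.539) in the last 3 libraries. It was higher in the angptl7/rspo1 class (1.04, 0.853 and 0.800 at the same stages) and in smooth muscle (0.812 at initiation and 0.799 at expansion). In fibroblasts, the angptl7/rspo1 class, epicardial, endocardial and other endothelial cells, and in CMs, the highest value of the libraries fell at establishment, for example 0.847 (0.810 to 0.886) in epicardial cells against 0.610 (0.581 to 0.639) at expansion. Only in fibroblasts and epicardial cells did its interval lie apart from all others. In the remaining classes it overlapped another library, as in endocardial cells with 0.584 (0.552 to 0.617) against 0.571 (0.548 to 0.594) at expansion. In red blood cells the ratio was 0.564 (0.406 to 0.776) at initiation and 0.671 (0.458 to 0.977) at establishment, which also overlap. The ratio of col4a2 to col4a1 was under 1 in all classes that allowed it, from 0.244 in endocardial cells at establishment to 0.541 (0.387 to 0.750) in angptl7/rspo1 cells at expansion, and it was 0.303 (0.294 to 0.311) in endocardial cells against 0.419 (0.395 to 0.444) in fibroblasts at expansion. A 3′ capture difference between neighbouring genes acts on a ratio, so ratios are read between classes and stages and not as chain numbers.

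For type VI, col6a2 and col6a1 were nearly equal in fibroblasts at expansion, with a ratio of 0.976 (0.910 to 1.05), and 0.738 (0.689 to 0.789) at maturation, whereas endocardial cells held more col6a2, at 1.69, 1.57, 1.65 and 1.44 from initiation to maturation. The ratio of col6a3 to col6a1 differed between classes. In smooth muscle it was 8.27 (6.69 to 10.3) at initiation and 4.34 (3.43 to 5.54) at expansion, in the angptl7/rspo1 class 6.59 (4.19 to 10.8) at expansion, in fibroblasts 2.31 (2.18 to 2.46) and in endocardial cells 0.930 (0.889 to 0.974). It was lower at establishment than at expansion in fibroblasts (0.922) and epicardial cells (1.29 against 3.38). In the angptl7/rspo1 class it was 2.12 (0.869 to 5.69) at establishment, from 17 and 8 UMIs, which overlaps the interval at expansion. The ratio of col5a2a to col5a1 was 3.0 (2.63 to 3.44) in smooth muscle at initiation, 1.34 (1.19 to 1.51) in angptl7/rspo1 cells, 0.875 (0.844 to 0.907) in endocardial cells and 0.208 (0.195 to 0.222) in fibroblasts at expansion.

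Paralogs of 1 chain were not used evenly. The ratio of col1a1b to col1a1a was 0.987 (0.941 to 1.04) in endocardial cells at expansion, 1.64 (1.57 to 1.73) in fibroblasts and 2.93 (2.51 to 3.44) in smooth muscle. The ratio of col12a1b to col12a1a was 0.846 (0.752 to 0.952) in fibroblasts and 0.108 (0.093 to 0.126) in epicardial cells at expansion, and 0.838 (0.688 to 1.02) and 0.078 (0.066 to 0.093) at maturation, so the class difference was present in both libraries. The ratio of col18a1a to col18a1b in fibroblasts was 0.013 (0.00032 to 0.074), 0.122 (0.1 to 0.148) and 0.377 (0.348 to 0.409) in the last 3 libraries, in pericytes 0.076 (0.024 to 0.186) at expansion and 0.304 (0.192 to 0.469) at maturation, and in CMs 96.7 (53.8 to 194), 33.5 (18.5 to 67.6), 5.15 (3.55 to 7.67) and 0.564 (0.319 to 0.975) from initiation to maturation, so that col18a1a exceeded col18a1b in the first 3 libraries and not at maturation. Reads that match both paralogs equally well are not counted by the pipeline, so a split between near-identical copies is uncertain.

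The level of a gene in a class can be spread over its cells or held by some of them. In fibroblasts thinned to 2500 UMIs, col1a2 was detected in 86.0%, 87.7% and 83.2% of barcodes from establishment to maturation and col5a1 in 89.5%, 95.6% and 93.5%, against at most 2.29% and 1.53% of red blood cells. The share of fibroblasts with col12a1b was 38.6% (26.0% to 52.4%), 20.6% (17.3% to 24.2%) and 7.23% (5.36% to 9.50%), that with col18a1a 0% (0% to 6.27%), 5.15% (3.45% to 7.35%) and 25.1% (21.8% to 28.6%), and that with col5a3a 3.51% (0.428% to 12.1%), 11.8% (9.18% to 14.8%) and 28.9% (25.5% to 32.6%). In epicardial cells col18a1b was detected in 50.8% (43.3% to 58.3%) at initiation and 8.95% (6.08% to 12.6%) at maturation, and col12a1a, whose level varied little, in 38.3% (31.2% to 45.7%) and 58.3% (52.8% to 63.8%). Before thinning, the fibroblast shares of col18a1a were 1.75%, 9.38% and 37.2%, at median depths of 8101, 4849 and 5640.5 UMIs.

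At maturation col18a1a was detected in a larger share of the fibroblasts that held col5a3a or col18a1b than of those that did not. Barcodes were thinned anew for each pair of genes, so the numbers of barcodes with a gene differ a little from those behind the shares above. In fibroblasts with a col5a3a UMI after thinning, 38.5% (31.5% to 45.9%) also held col18a1a, against 19.0% (15.5% to 22.9%) of those without, at median depths of 5715 and 5621 UMIs. With col18a1b the shares were 33.0% (28.3% to 37.9%) and 16.0% (11.8% to 21.0%). Fibroblasts with a col12a1b UMI, of which there were 43, held col18a1a in 9.30% (2.59% to 22.1%), against 27.5% (24.0% to 31.3%) of those without. At expansion, col12a1a was held by 29.7% (21.4% to 39.1%) of fibroblasts with col12a1b and 21.5% (17.7% to 25.7%) of those without, whose intervals overlap. In CMs at initiation 21.6% (15.1% to 29.4%) of those with col13a1 held col18a1a, against 12.3% (10.3% to 14.7%) of those without, at median depths of 11508 and 10486 UMIs. The barcodes of each comparison share 1 library, so these shares describe that library.

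Collagen chains need an assembly line of enzymes and chaperones, and in fibroblasts more of those genes were lower than higher at maturation. In the endoplasmic reticulum prolyl hydroxylases (p4ha and p4hb genes), lysyl hydroxylases (plod genes), the chaperone Hsp47 (serpinh1a and serpinh1b) and the isomerase ppib fold and modify the chains. Of 21 such genes in the files, 18 were compared between establishment and maturation, 9 were called lower at maturation and 2 higher, beside the 24.3% and 21.9% of all genes. Those lower with the highest levels at establishment were ppib at 894, 371 and 277 from establishment to maturation, serpinh1b at 657, 419.9 and 277, and plod2 at 218, 237 and 99.4. Also lower were p4hb, plod3, crtap, p3h3, fkbp10b and serpinh1a, while p4ha1a and p4ha1b, the catalytic chains of prolyl hydroxylase, were higher at 12.1 and 31.2 against 27.9 and 79.9. In epicardial cells 1 of 18 of these genes was called lower and 1 higher from initiation to maturation, beside 13.1% and 5.58% of all genes.

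Outside the cell, procollagen is trimmed by bmp1a and adamts2, helped by the enhancers pcolcea and pcolce2b, and crosslinked by lysyl oxidases. Of 19 genes of this list in the files, 9 were compared in fibroblasts, 2 were higher at maturation and 3 lower, shares near the 21.9% and 24.3% of all genes. The proteases were those higher, bmp1a at 113, 609 and 456 and adamts2 at 58.9, 167 and 218. Those lower were the enhancers pcolcea, 447, 209 and 53.1, and pcolce2b, 244, 88.7 and 19.2, and the lysyl oxidase loxl2a, 388, 436 and 112. Among the proteoglycans that coat fibrils, and the collagen-binding sparc, 2 of 4 compared were higher and 0 lower (the same background): prelp went from 13.9 to 117 and bgnb from 8.66 to 29.7. The most abundant of that list, sparc and dcn, were 1906 and 1407 at establishment and 1165 and 1357 at maturation. Of 6 collagen receptors compared, 1 was higher and 0 lower, below the background in both directions, and this was ddr1, a receptor kinase for collagen (1.73 and 27.6). Its establishment value lay below 5.20 CPM, the limit that a count of 0 allows there. Those of bgnb (8.66) and prelp (13.9) were not far above that limit, so these calls rest on few UMIs at establishment. Not called were itgb1a, itga1 and ddr2a, at 171, 199.6 and 62.9 at expansion.

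Between initiation and maturation, the folding list had 1 higher and 2 lower of 15 in endocardial cells and 3 higher and 2 lower of 15 in other endothelial cells, and the processing list had 2 higher and 3 lower of 8 and 4 higher and 2 lower of 9. Of all genes, 10.6% were higher and 27.3% lower in endocardial cells and 14.2% and 18.3% in other endothelial cells. In CMs the folding list had 5 lower and 1 higher of 10 compared, the processing list 3 lower and 1 higher of 4 compared, the proteoglycan list 0 lower and 1 higher of 2 compared and the receptor list 3 lower and 0 higher of 3 compared, beside the 46.2% of all CM genes that were lower and the 5.75% that were higher. In smooth muscle from initiation to expansion, 1 folding gene was higher and 1 lower of 17, and 0 of 10 processing genes were called, where 4.27% and 5.57% of all genes were higher and lower.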

How the data were processed

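Ventricle cells were dissociated with collagenase and TrypLE and captured with the 10x Chromium 3′ chemistry, with 1 library for each stage. The deposited matrices hold raw UMI counts of 36351 genes for all barcodes, which the authors made with Cell Ranger against GRCz11 and the zebrafish annotation of Lawson and colleagues. The labels and methods name Cell Ranger 6.1.2 and the file headers 7.1.0, and releases differ in how they treat intronic reads, so which setting was used is not known here. Reads that map to several genes are not counted by this tool.

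From these counts, barcodes with at least 2500 UMIs and 600 genes were kept and classed by the number of markers detected (3 to 5 by class; red blood cells by at least 10% globin and other red cell marker UMIs, CMs also by at least 2% CM marker UMIs). Of 110 marker entries 109 were in the gene table. Barcodes past the gates of several compartments, or tied between classes, were set aside. The marker lists hold no collagen. Members, marker lists and the 4 lists of collagen-making genes (63 of 68 entries in the gene table) were chosen with earlier results of these data known, and the number of markers each gate needs, the comparison of fibroblasts from establishment and of smooth muscle to expansion, and values from 25 to 49 barcodes were chosen after the data were seen. Genes given with values were the 15 with the most UMIs, the 3 highest in each class, up to 8 past 2-fold in each class with at least 100 UMIs, and the chains of the ratios; others were named after their values were seen. Mean levels for the minimum of 10 CPM were taken over the stages with at least 50 barcodes. With 1 library for each stage no test was made. Poisson limits (levels), Clopper-Pearson limits (shares and, transformed, ratios of 2 counts) are 95% limits of the counting error. The upper limit for a count of 0 was set at 3 counts. For shares of barcodes with a UMI, each barcode was thinned at random to 2500 UMIs, separately for each gene. Sequences and gene positions were not analysed here: the reference table (RefSeq, GRCz12tu) was used for names and neighbours only, and held all 55 collagen symbols. Python 3.11.15, NumPy 2.4.6, SciPy 1.17.1, pandas 2.3.3 and matplotlib 3.10.9 were used, and scripts were tested on simulated counts. Alternatives were a deeper minimum (5000 UMIs and 1000 genes), stricter gates, mixed barcodes, a mitochondrial filter, the denominator, the weight of cells, subtraction of free RNA, the fold, centring and the level filter.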

Additional observations from a re-analysis of the deposited data

Results flagged for a closer look

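Several collagen genes were past 2-fold in opposite directions in different cell classes over the same pair of stages. How many of all genes did so was not counted, so these cases are not shown to be particular to collagens. With 1 library at each stage the difference was not tested in any of these cases, and the classes compared come from the same libraries. From establishment to expansion col12a1a was lower in fibroblasts, by a log2 difference of -1.38, and higher in the angptl7/rspo1 class (1.31), endocardial cells (1.38) and other endothelial cells (1.61). Of all genes, 13.2% were past 2-fold lower in fibroblasts. Those past 2-fold higher were 26% in the angptl7/rspo1 class, 17.8% in endocardial cells and 24.2% in other endothelial cells. In free RNA col12a1a was 14.1 CPM at establishment and 31.1 at expansion, and the part of free RNA in the higher values was not tested. From expansion to maturation col18a1a was higher in fibroblasts (2.38; all genes 1.98% higher) and lower in CMs (-1.73, all genes 33.3% lower). From initiation to maturation the basement membrane chain col4a1 was lower in epicardial cells (-1.23) and higher in CMs (1.52). Its partner col4a2 was lower in epicardial cells (-1.51) and higher in other endothelial cells (1.32) and in CMs (1.29). Of all genes, 13.1% were lower in epicardial cells, and 14.2% in other endothelial cells and 5.75% in CMs were higher. In CMs both type IV chains lay below free RNA at maturation, and col4a1 was 43.7 there against 66.1 in free RNA.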

How the results depend on the processing

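The folds rerun were 29, of collagen genes past 2-fold with at least 100 UMIs, up to 8 in a class. They ran from initiation to maturation, from establishment in fibroblasts and to expansion in smooth muscle. None of them changed sign under the alternatives that allowed it. Other folds of single genes, among them those between neighbouring stages and of collagen-making genes, were not rerun. Fibroblasts had the highest summed level at expansion under each alternative. The fibroblast folds from establishment to maturation, among them col18a1a, col5a3a, col12a1a and col12a1b, could not be checked under every alternative. They had no value with the deeper minimum, with 1 more marker or without barcodes that held markers of a further class. The class then held under 50 barcodes at establishment. Among classes with a value, the order at expansion turned at 1 place, since other endothelial cells (3043) lay above the angptl7/rspo1 class (3025) with at least 5000 UMIs and 1000 genes, in place of 2815 and 3193. Pericytes, next after fibroblasts as reported, rest on 53 barcodes there. They fell under 50 and had no value with the deeper minimum, with 1 more marker and without barcodes that held markers of a further class. Their place was therefore not checked under these alternatives. The summed levels at expansion in fibroblasts, epicardial cells, the angptl7/rspo1 class, endocardial cells and CMs were 12300.3, 5806, 3193, 2122 and 249 CPM as reported. They were 12850.0, 5716, 3025, 2220.0 and 223 with at least 5000 UMIs and 1000 genes, 11910.0, 5369, 3072, 2067 and 180.0 without barcodes that held markers of a further class, and, leaving out the angptl7/rspo1 class, 13150.0, 5563, 2207 and 192 with 1 more marker for each class and 12770.0, 5977, 2193 and 282 without globin and mitochondrial UMIs in the total. Epicardial and endocardial values were 5886 and 2143 under the mitochondrial filter. Epicardial, angptl7/rspo1, endocardial and CM values were 5940.0, 3326, 2063 and 290.1 as means over barcodes, and endocardial and CM values 2076 and 203 after subtraction of free RNA in the amount that sets red blood cells to 0. Over all classes and stages the summed level under an alternative was 0.396 to 3.37 times that reported. It moved by over 1.5 times only in red blood cells (to 155 at expansion with 1 more marker, for example) and in CMs at maturation, which held 368 with at least 5000 UMIs and 1000 genes and 95.2 without barcodes that held markers of a further class, in place of 241. With 1 more marker the angptl7/rspo1 class fell under 50 barcodes at expansion and had no value. Counts of collagen genes past 2-fold from initiation to maturation moved as follows, beside the share of all genes past the same fold. With 1 more marker, other endothelial cells had 1 of 16 in place of 5 (all genes 31%). Without barcodes with markers of a further class CMs had 2 of 4 in place of 6 (all genes 55.9%). At 1.5-fold, endocardial cells had 4 of 14 in place of 1 (all genes 62.3%) and other endothelial cells 10 of 16 (all genes 57.1%). At 3-fold, epicardial cells had 2 of 18 in place of 7 (all genes 6.65%). Endocardial cells then had 0 of 14 (all genes 17%) and other endothelial cells 0 of 16 (all genes 14%). Centred on the median of all genes, endocardial cells had 2 of 14 (all genes 34.9%). Other endothelial cells had 4 of 16 higher (all genes 18%) and 3 lower (all genes 13.8%) in place of 2 and 3. Centring also moved counts between neighbouring stages. From establishment to expansion the angptl7/rspo1 class had 6 of 20 in place of 12 (all genes 30.8%). Endocardial cells had 1 of 14 in place of 6 (all genes 21.1%) and other endothelial cells 3 of 16 in place of 8 (all genes 28.2%). Epicardial cells had 3 of 18 in place of 7 from initiation to establishment (all genes 30.9%). Pericytes had 3 of 19 in place of 6 from expansion to maturation (all genes 20.9%). The median log2 difference of all genes, which centring removes, was between -0.88 (CMs, initiation to maturation) and 0.44 (epicardial cells, establishment to expansion). With no minimum level, epicardial cells had 14 of 26 (all genes 23.9%) and endocardial cells 9 of 35 (all genes 42.3%). Other endothelial cells had 8 of 21 (all genes 36.7%) and CMs 20 of 21 (all genes 51.4%). Smooth muscle, to expansion, had 7 of 21 in place of 4 (all genes 14.9%). The col6a3 to col6a1 ratio of fibroblasts at expansion was 2.13 in place of 2.31 with at least 5000 UMIs. The causes of these moves were not tested, apart from the fewer or more genes that a fold or level minimum lets in by construction. Among values of the 29 rerun folds under an alternative, 26 moved past their counting interval and 124 did not, and among ratios 10 did and 154 did not. Among summed levels 109 moved past their counting interval and 90 did not, and among counts of collagen genes past the fold 64 moved by over 1.5 times and 131 did not. No paired analysis was possible because each stage has 1 library, and for the same reason no replicate could be left out. Depth limits the rare chains, since 15 of 56 rows had fewer than 100 UMIs, and the classes of under 60 barcodes, above all fibroblasts at initiation and establishment.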

Other observations

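Barcodes that met the gates of several compartments, or that were tied between classes, held 1775, 1477, 3521 and 3766 CPM of collagen from initiation to maturation, in 265, 497, 1153 and 757 barcodes. Barcodes that met no gate held 2134, 1870.5, 3219 and 2543, in 183, 327, 1170 and 836 barcodes. Their levels lie between those of the endothelial and epicardial classes at expansion and maturation, so collagen UMIs are also held by barcodes outside the classes described. The 27 thrombocyte barcodes at expansion held 1709 (1471 to 1974), against 443 (369 to 527) in the 77 at maturation. At expansion 48.1% of them held a collagen UMI, and the median over barcodes was 0 and the mean 773. At maturation the median was 288 and the mean 387. The summed value at expansion thus rests on part of the barcodes, and its interval does not measure the spread between them.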
